A study of Mus musculus with 4 samples.

Results

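The genes described here are a fixed list of 7: the tissue inhibitors of metalloproteinases Timp1, Timp2, Timp3 and Timp4, and the matrix metalloproteinases Mmp2, Mmp3 and Mmp14. They were taken from the 18109 genes common to 3 tables of UMI counts (unique molecular identifiers, 1 per captured transcript) from single cells of the ascending aorta of male mice. All 3 libraries came from the Mef2c-mTmG strain, in which a reporter traces cell lineage, and live single cells were sorted on that lineage before capture. SHF_Baseline held cells of the second heart field lineage from mice without infusion. SHF_AngII held cells of the same lineage after 3 days of angiotensin II infusion. CNC_AngII held cells labelled as the CNC lineage, which the labels do not spell out, after the same infusion. The driver of the lineage mark, the age and number of mice and the dose are not given in the sources used here, and baseline cells of the CNC lineage were not analysed here. The study asked how the response to angiotensin II, a peptide hormone that raises blood pressure and remodels the aortic wall, differs between lineages.

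With 1 library per group there were no replicates. No test was therefore made, every interval below is a 95% interval that covers counting error only, and differences between libraries include whatever else differed between them. Levels are in CPM, the UMIs of a gene summed over the cells of a class and scaled to counts-per-million of all UMIs of those cells. A log2 ratio or a fold difference is taken after adding 1 CPM to both levels. The interval of a log2 ratio is that of the ratio of the summed UMIs without the added CPM.

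Matrix metalloproteinases are zinc enzymes, secreted or bound to the cell surface as inactive proforms, that cut collagens, elastin, proteoglycans and other matrix proteins. TIMPs bind their active sites. Timp2 has a further role as an adaptor: bound to the membrane enzyme Mmp14, it holds the proform of Mmp2 in place so that a neighbouring Mmp14 can cut it. Timp3 stays bound to the matrix and also inhibits ADAM and ADAMTS proteases, and Timp1 is a secreted inhibitor with little action on membrane-type enzymes. In the aortic wall the balance of these proteins bears on the breakdown of elastic layers.

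Cells were assigned by gates on marker genes: smooth muscle cells had at least 5 Myh11 UMIs and no Pdgfra, fibroblasts had at least 1 Pdgfra UMI and at most 2 of Myh11, and macrophages had at least 10 UMIs of C1qa, C1qb and Lyz2 together and under 5 of Myh11. After filters, smooth muscle held 2259 of 8374 cells in SHF_Baseline, 4649 of 9299 in SHF_AngII and 6385 of 10194 in CNC_AngII. Fibroblasts numbered 3939, 2640 and 842 in the same order. CNC_AngII held 1764 macrophages, 17.3% of its cells. The AngII libraries thus differed in the kinds of cells they held as well as in the lineage label, and the origin of the macrophages was not tested. SHF_Baseline and SHF_AngII held 8 and 13 cells that passed that gate (0.10% and 0.14%), too few to compare. These 8 and 13 cells carried 9139 and 2972 CPM of the fibroblast gene Dcn. The 5 smooth muscle markers checked (Acta2, Tagln, Cnn1, Lmod1 and the gate gene Myh11) summed to between 55836 and 63248 CPM in smooth muscle and between 1246 and 4011 CPM in fibroblasts. The 5 fibroblast markers (Dcn, Lum, Dpt, Clec3b and the gate gene Pdgfra) summed to 20269.5, 8074 and 6643 CPM in fibroblasts of SHF_Baseline, SHF_AngII and CNC_AngII, against 417, 262 and 32.3 CPM in smooth muscle. Cells of each pair of libraries shared between 29 and 34 barcodes.

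Timp1 and Mmp3 were the genes of the list that stood more than 2-fold higher in SHF_AngII than in SHF_Baseline in both classes, and the sequence near their starts is shown for that reason. The coordinates are those of GRCm38 (mm10), and the sequences are from RefSeq. Mmp3 lies on chromosome 9 from 7445822 to 7455975 on the plus strand. The 250 bases before its start (chr9:7445572-7445821, plus strand) are printed first, and then 29 bases of Timp1 (chrX:20870181-20870209, plus strand) that lie in an exon of its annotated transcript, within the UTR. Capitals mark letters that match a site of the AP-1 family, searched on both strands as TGANTCA and as the variant TGANTAA.
Mmp3: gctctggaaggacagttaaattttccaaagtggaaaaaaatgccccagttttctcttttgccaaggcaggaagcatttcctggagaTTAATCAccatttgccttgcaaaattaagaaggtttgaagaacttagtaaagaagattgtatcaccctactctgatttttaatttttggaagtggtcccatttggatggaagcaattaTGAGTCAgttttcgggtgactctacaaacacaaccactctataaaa
Timp1: cggtgggtggaTGAGTAAtgcgtccagga
The Mmp3 stretch held TGAGTCA, which reads as a match on both strands, 46 bases before the start and TTAATCA, a match on the minus strand, 164 bases before it. It also held TATAAA 7 bases before the start. The Timp1 match, TGAGTAA, began 27 bases after the start. Among all 32851 windows of 300 bases in the same RefSeq table (250 before and 50 after a start), 7.81% held TGANTCA, 10.6% held TGANTAA and 13.6% held TATAAA. The windows of Timp2, Timp3, Timp4 and Mmp14 held neither AP-1 form. Of the list, 6 genes had a window in the table. These letters are a description of the windows and not evidence of binding.

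The other genes lie at chrX:20870166-20874735 (Timp1, plus strand), chr11:118301069-118355740 (Timp2, minus), chr10:86300372-86349506 (Timp3, plus), chr6:115241892-115252205 (Timp4, minus), chr8:92827291-92853420 (Mmp2, plus) and chr14:54431612-54445364 (Mmp14, plus). Timp1, Timp3 and Timp4 sit inside the synapsin genes Syn1, Syn3 and Syn2 on the opposite strand. Timp3 shares 1733 exon bases with Syn3 and Timp4 shares 90 with Syn2, so where counting did not use strand their reads could not be told apart. Syn3 was counted at 9.06 to 31.8 CPM in smooth muscle and fibroblasts, and Syn2 at 0.62 to 3.84 CPM.

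Fibroblasts had higher levels of most of these transcripts than smooth muscle in every library. In SHF_Baseline, Mmp3, a stromelysin that cuts proteoglycans and activates other proforms, stood at 254 CPM in fibroblasts and 7.95 CPM in smooth muscle. With 1 CPM added to both, this is a 28.5-fold difference. Mmp2, the gelatinase that cuts denatured collagen and type IV collagen, stood at 561 against 32.5 CPM in the same library. Among the 6 genes with a mean of at least 10 CPM, 5 were more than 2-fold higher in fibroblasts than in smooth muscle in SHF_Baseline, where 13.9% of all genes tested were. The counts were likewise 5 of 6 in SHF_AngII, against 12.9% of all genes, and 5 of 6 in CNC_AngII, against 12.1%. The median log2 ratio over these genes was 2.55, 2.24 and 2.85 in the 3 libraries, and over all genes tested it was 0.19, 0.11 and 0.11. In SHF_Baseline the gene that missed the fold was Timp3, with a log2 ratio of 0.98, and in both AngII libraries it was Timp2. The SHF_Baseline ratios depend on the quality filter: a stricter one, of 1000 genes or more and a mitochondrial share of 5% or less, kept 120 of the 2259 smooth muscle cells. Under it the log2 ratio of fibroblasts over smooth muscle was 1.22 in place of 4.83 for Mmp3, 2.75 in place of 4.07 for Mmp2, 2.16 in place of 3.07 for Timp1, 1.44 in place of 2.03 for Timp2 and 0.60 in place of 1.20 for Mmp14, which is then not past 2-fold. In SHF_AngII it was 2.82 in place of 3.55 for Timp1. The fibroblast genes Dcn, Lum, Dpt and Clec3b stood higher in the 120 baseline cells than in all 2259. Dcn was at 1499 against 311 CPM and Clec3b at 58.6 against 5.75 CPM. The part of fibroblast transcripts in these ratios was not tested.

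Timp4, an inhibitor known mainly from heart, muscle and brain, was the exception to this order. It stood at 6.77, 7.44 and 6.24 CPM in smooth muscle of SHF_Baseline, SHF_AngII and CNC_AngII, and at 1.27, 1.58 and 9.78 CPM in fibroblasts. Its level was higher in smooth muscle than in fibroblasts in both SHF libraries but not in CNC_AngII. Most Timp4 values rest on few molecules: the fibroblast sums were 48, 71 and 112 UMIs, from 31, 42 and 38 cells.

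**Figure D1:**
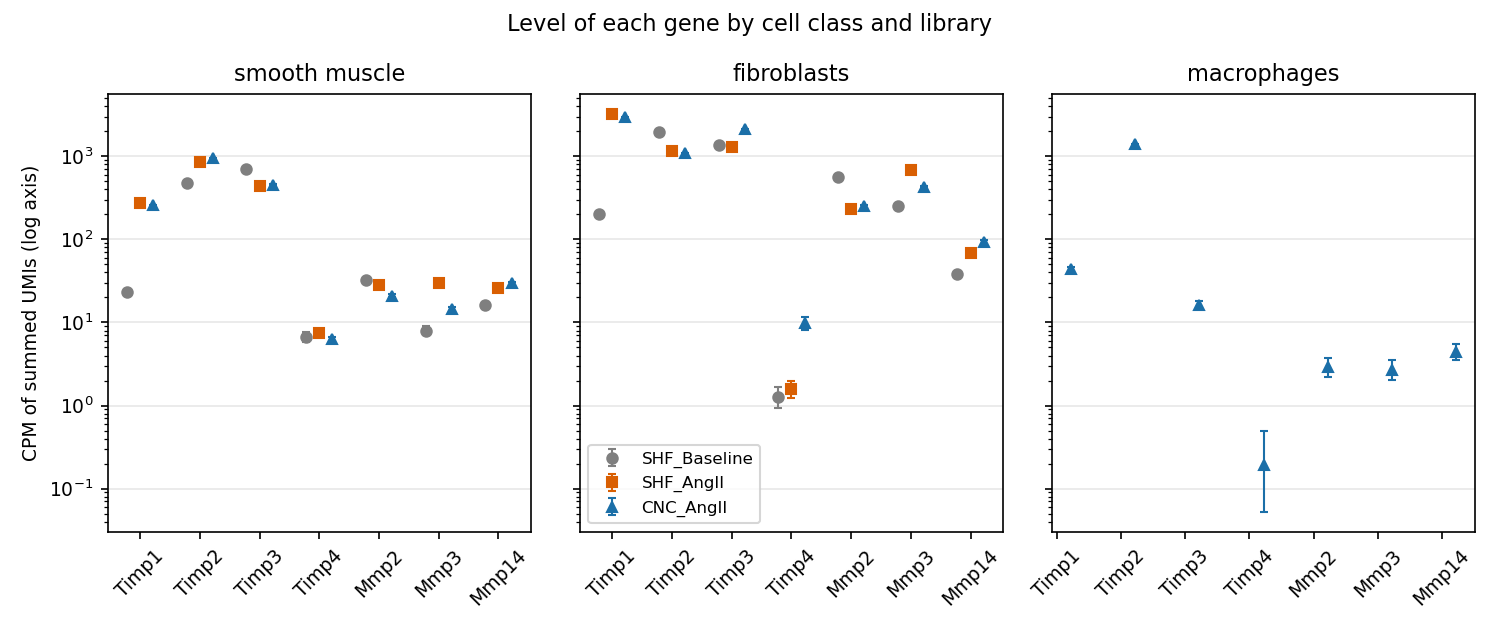
CPM of each gene (log axis) in smooth muscle, fibroblasts and macrophages of SHF_Baseline (circles), SHF_AngII (squares) and CNC_AngII (triangles). Points are 1 library each and bars are exact Poisson intervals, which cover counting error only. Timp1 in fibroblasts stands at 202 CPM in SHF_Baseline and at 3267 and 2964 CPM in the AngII libraries, and only Timp2 is above 1000 CPM in macrophages.

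Ordered by level over the 7 class and library sums of at least 50 cells, Timp1 was highest in fibroblasts of SHF_AngII and CNC_AngII, followed by smooth muscle of SHF_AngII (277 CPM) and CNC_AngII (257 CPM), fibroblasts of SHF_Baseline (202 CPM), macrophages (43.8 CPM) and smooth muscle of SHF_Baseline (23.3 CPM). By summed level, smooth muscle after angiotensin II thus stood above baseline fibroblasts for this gene. The share of cells with a Timp1 UMI ran the other way. That share was 63.8% in baseline fibroblasts, 57.7% in SHF_AngII smooth muscle and 58.4% in CNC_AngII smooth muscle. After thinning to 5000 UMIs per cell it was 48.1%, 37.8% and 38.7%. Cells with 50 or more Timp1 UMIs made up 0.10%, 1.46% and 0.91% in the same order. Timp2 was highest in baseline fibroblasts (1962 CPM) and next in CNC_AngII macrophages (1401 CPM). Timp3 was highest in CNC_AngII fibroblasts (2103 CPM) and lowest in macrophages (16.3 CPM). Neighbours in these orders differed beyond counting error for every gene except Timp4, where 3 neighbouring pairs did not.

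The largest difference between SHF_AngII and SHF_Baseline was in Timp1. In fibroblasts it stood at 202 CPM (197.7 to 207) in SHF_Baseline and 3267 CPM (3250 to 3283) in SHF_AngII, 16.1-fold higher (log2 ratio 4.01, interval 3.98 to 4.05). In smooth muscle it stood at 23.3 CPM (21.6 to 25.1) and 277 CPM (273 to 281), 11.5-fold higher (log2 ratio 3.52, interval 3.46 to 3.69). The share of fibroblasts with a Timp1 UMI was 63.8% in SHF_Baseline and 99.3% in SHF_AngII. In the 3222 and 2504 fibroblasts with at least 5000 UMIs, thinned to that depth, it was 48.1% and 97.5%. Among smooth muscle cells it was 18.8% and 57.7%, or 8.68% and 37.8% after thinning. The number of Timp1 molecules per fibroblast was also higher: 34.2% of SHF_AngII fibroblasts held 50 or more UMIs, against 0.10% in SHF_Baseline.

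Mmp3 was the other gene past 2-fold higher in both classes. In fibroblasts it stood at 254 CPM (249 to 259) in SHF_Baseline and 679.6 CPM (672 to 687) in SHF_AngII, 2.67-fold higher (log2 ratio 1.41, interval 1.38 to 1.45). In smooth muscle it stood at 7.95 CPM (6.97 to 9.04) and 30.1 CPM (28.8 to 31.4), 3.47-fold higher (log2 ratio 1.80, interval 1.72 to 2.12). Mmp3 was held by a minority of cells. In fibroblasts the share with a UMI was 18.3% in SHF_Baseline and 49.8% in SHF_AngII, or 15.9% and 40.1% after thinning, against 2.15% in CNC_AngII macrophages. The 10% of fibroblasts with the highest share of Mmp3 held 92.8% of its UMIs in SHF_Baseline and 66.9% in SHF_AngII.

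The baseline value of Mmp3 in smooth muscle came from 235 UMIs in 38 of 2259 cells, of which 1 cell held 73. Median mitochondrial shares of UMIs in smooth muscle were 7.36% in SHF_Baseline, 5.43% in SHF_AngII and 5.16% in CNC_AngII. Of the 120 baseline smooth muscle cells that passed the stricter filter, 5 held 143 Mmp3 UMIs, and under it the ratio of SHF_AngII to SHF_Baseline turned to a log2 value of -1.41. Dcn stood at 1499 CPM in those 120 cells and at 311 CPM in all 2259.

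**Figure D2:**
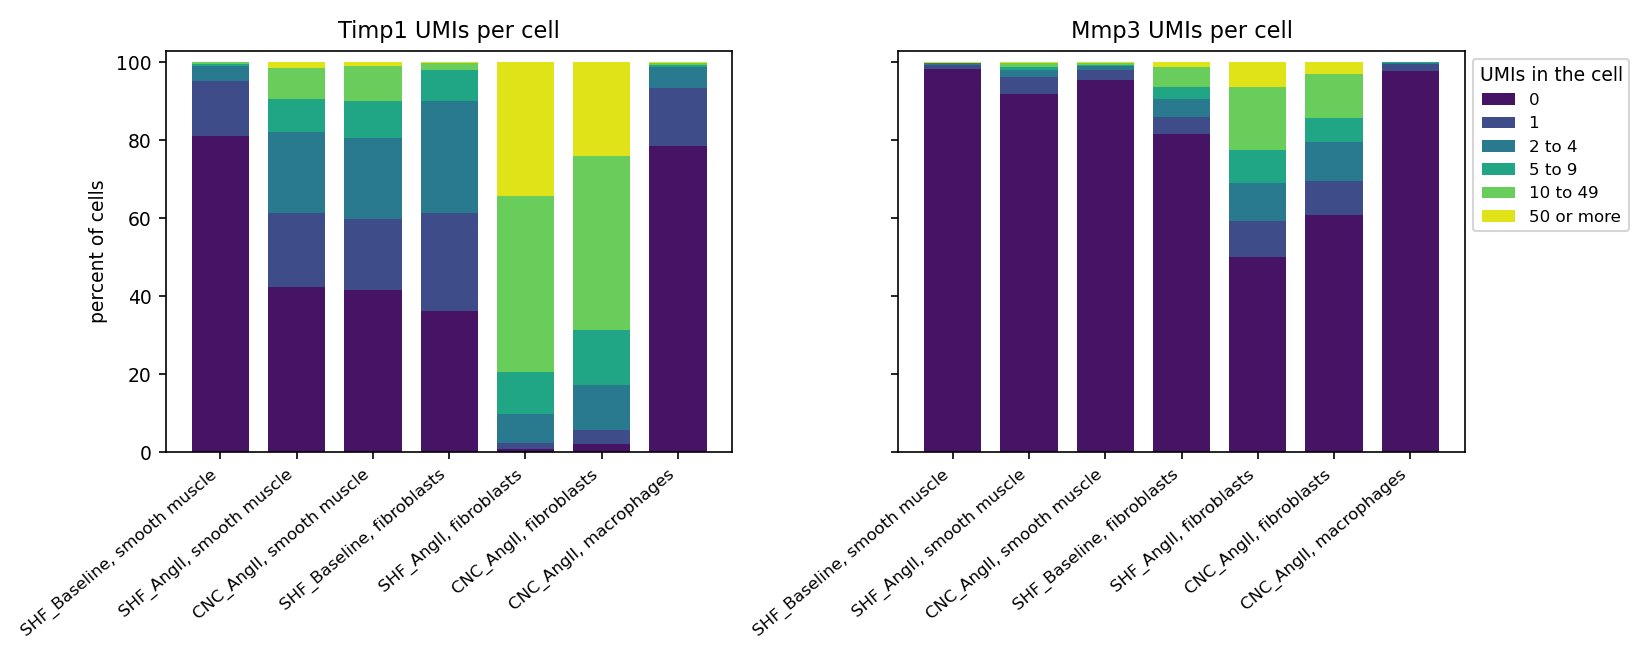
Percent of cells in bins of Timp1 (left) and Mmp3 (right) UMIs per cell, for each class and library, with counts as deposited, without thinning. Timp1 has 50 or more UMIs in 34.2% of SHF_AngII fibroblasts, while 50.2% of the same cells have no Mmp3 UMI.

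Mmp2 differed the other way in fibroblasts. It stood at 561 CPM (553 to 568) in SHF_Baseline and 229 CPM (225 to 234) in SHF_AngII, 0.41 times as high (log2 ratio -1.29, interval -1.32 to -1.26). In smooth muscle it was 32.5 and 28.6 CPM, a log2 ratio of -0.18, and under the stricter filter it was 80.8 and 36.6 CPM, past 2-fold lower at -1.12. Mmp14, the membrane-type enzyme that activates Mmp2, was higher in SHF_AngII without passing 2-fold: 38.3 and 69.0 CPM in fibroblasts (log2 ratio 0.83) and 16.1 and 26.1 CPM in smooth muscle (log2 ratio 0.67). Scaling by trimmed means (TMM) put the fibroblast ratio of Mmp14 past 2-fold, at 1.10.

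Timp2 differed in opposite directions in the classes. In smooth muscle it stood at 479.6 CPM in SHF_Baseline and 843 CPM in SHF_AngII (log2 ratio 0.81, interval 0.79 to 0.84). In fibroblasts it stood at 1962 and 1155 CPM (log2 ratio -0.76, interval -0.78 to -0.75). As a percentage of the fibroblast level in the same library, smooth muscle thus held 24.5% in SHF_Baseline and 72.9% in SHF_AngII. Under the stricter filter the smooth muscle levels of Timp2 were closer, at 737 and 938 CPM, a log2 ratio of 0.35. Timp3 stood lower in SHF_AngII smooth muscle, at 696 and 445 CPM (log2 ratio -0.64), and at 1376 and 1282 CPM in fibroblasts, a log2 ratio of -0.10 that became 0.18 with TMM scaling.

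Counted together, 2 of the 6 genes with at least 10 CPM were past 2-fold higher in smooth muscle of SHF_AngII than of SHF_Baseline and 0 were lower, where 2.86% of 6999 genes tested were higher and 3.53% lower. In fibroblasts 2 were higher and 1 lower, where 4.64% of 7692 genes were higher and 10.7% lower. The median log2 ratio was 0.74 over the 6 genes and -0.10 over all genes in smooth muscle, and 0.37 and -0.21 in fibroblasts. TMM scaling moved the median of all genes by 0.17 in smooth muscle and 0.27 in fibroblasts. With it the higher share of the genes past 2-fold went from 44.7% to 65.6% in smooth muscle and from 30.3% to 58.6% in fibroblasts. For fibroblasts over smooth muscle the shift was -0.24, -0.20 and -0.22 in SHF_Baseline, SHF_AngII and CNC_AngII, and the higher share went from 64.7% to 51.4%, from 57.3% to 46.7% and from 56.8% to 45.1%.

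**Figure D3:**
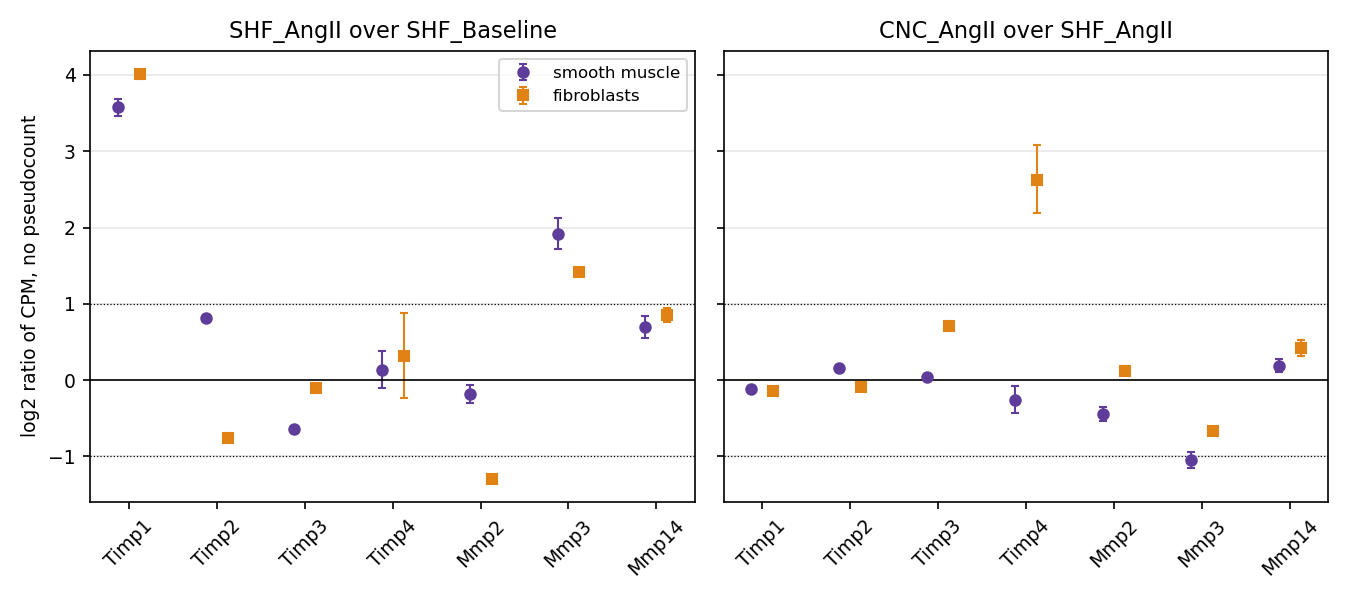
log2 ratio of CPM, without an added CPM, for SHF_AngII over SHF_Baseline (left) and CNC_AngII over SHF_AngII (right) in smooth muscle (circles) and fibroblasts (squares). Bars are intervals for counting error only and dotted lines mark 2-fold. The left panel has Timp1 as the highest gene in both classes and Timp2 on opposite sides of 0, and the right panel has most genes within 2-fold, apart from Timp4 in fibroblasts and Mmp3 in smooth muscle, which lies just past the line.

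The level of fibroblast transcripts in smooth muscle was measured beside these results. As a percentage of the fibroblast level in the same library, Mmp3 in smooth muscle stood at 3.13%, 4.43% and 3.40% in SHF_Baseline, SHF_AngII and CNC_AngII. The fibroblast markers Dcn, Lum, Dpt and Clec3b ranged from 0.44% to 4.35% in SHF_Baseline, from 0.88% to 5.56% in SHF_AngII and from 0.15% to 0.80% in CNC_AngII. Mmp3 therefore lay within the range of the markers in both SHF libraries and above it in CNC_AngII. Smooth muscle cells with a Mmp3 UMI had 585 CPM of Dcn in SHF_AngII and 59.2 CPM in CNC_AngII, against 134 and 18.2 CPM in cells without. The part of this background in the Mmp3 values was not tested. Timp1 in smooth muscle stood at 11.5%, 8.49% and 8.66% of the fibroblast level, above all 4 markers in each library. Mmp2 did as well, at 5.79%, 12.5% and 8.40%. The CPM of the 4 markers in smooth muscle was lower in SHF_AngII than in SHF_Baseline, for example 174 against 311 CPM of Dcn. Their fibroblast levels were lower as well, with Dcn at 5757 CPM in SHF_AngII and 15528 CPM in SHF_Baseline. As a percentage of the fibroblast level, all 4 markers stood higher in SHF_AngII, for example 5.56% against 4.35% for Lum and 0.88% against 0.44% for Clec3b. In fibroblasts, the 5 smooth muscle markers summed to 1246, 4011 and 3899 CPM in SHF_Baseline, SHF_AngII and CNC_AngII, and the macrophage markers to 3.43, 9.04 and 80.4 CPM, against 10905.5 CPM in CNC_AngII macrophages. Every gene of the list except Timp4 stood lower in smooth muscle than in fibroblasts of the same library.

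The makeup of the TIMP transcripts differed accordingly. Timp1 made up 5.71% of the UMIs of the 4 TIMPs in fibroblasts of SHF_Baseline, 57.3% in SHF_AngII and 48.1% in CNC_AngII. In smooth muscle it made up 1.93%, 17.6% and 15.4%, and the leading inhibitor passed from Timp3 (57.7% in SHF_Baseline) to Timp2 (53.6% and 56.7% in the AngII libraries). Among the UMIs of the 3 metalloproteinases in fibroblasts, Mmp3 made up 29.8% in SHF_Baseline, 69.5% in SHF_AngII and 55.6% in CNC_AngII. TIMP UMIs per UMI of these 3 metalloproteinases were 4.15, 5.83 and 7.996 in fibroblasts and 21.3, 18.5 and 25.5 in smooth muscle. The ratio depends on the list: the 3 summed to 56.5, 84.8 and 65.3 CPM in smooth muscle. Mmp23, described below and left out of the ratio, stood above that sum in smooth muscle of each library. These are counts of 3′ ends and say nothing of active protein.

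**Figure D4:**
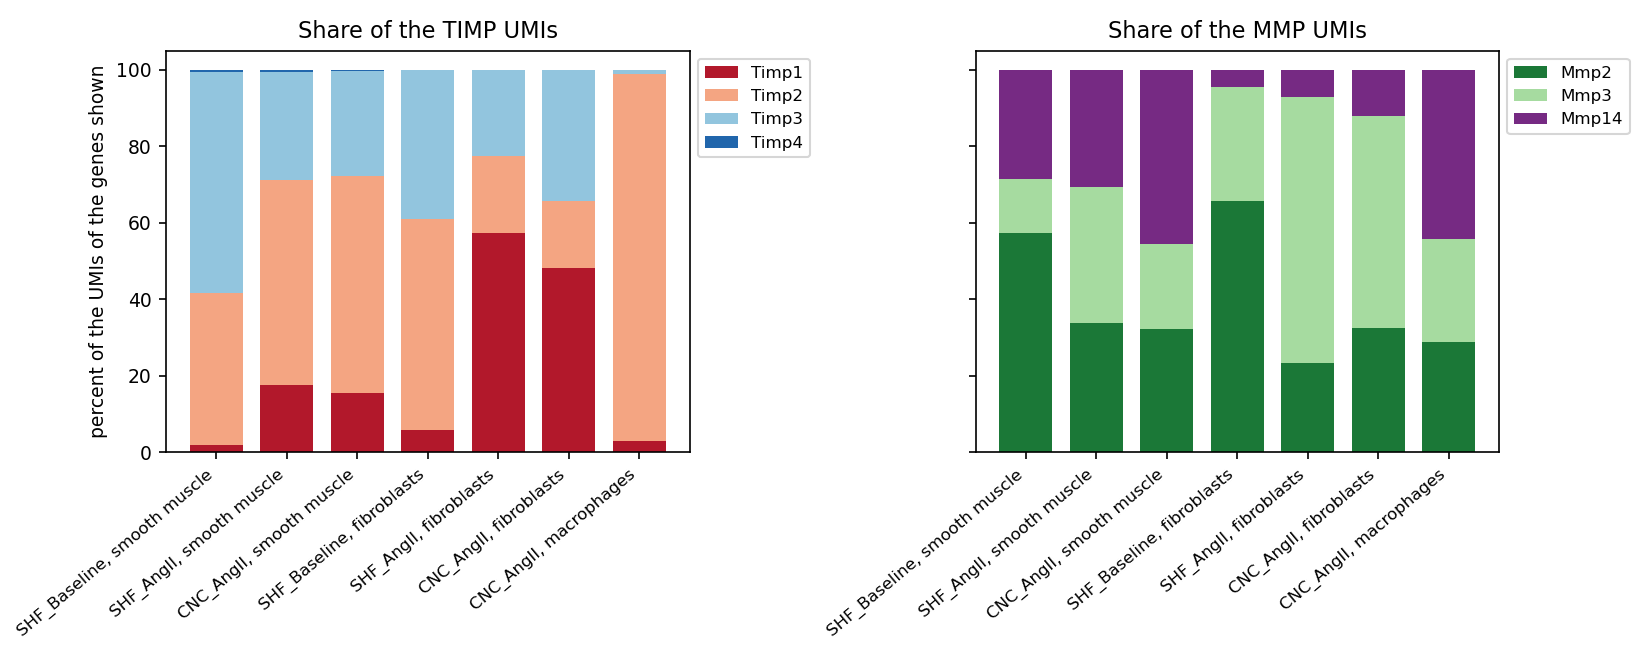
Share of each gene in the summed UMIs of the 4 TIMPs (left) and the 3 metalloproteinases (right), in percent, for each class and library of at least 50 cells. Timp1 goes from 5.71% of TIMP UMIs in SHF_Baseline fibroblasts to 57.3% in SHF_AngII, and Timp2 is 95.9% in CNC_AngII macrophages.

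Between CNC_AngII and SHF_AngII, the genes differed less, as did all genes tested. In smooth muscle 54 of 6764 genes passed 2-fold here, against 447 of 6999 for SHF_AngII over SHF_Baseline. In fibroblasts it was 44 of 7215 against 1180 of 7692. In smooth muscle 0 of the 6 genes with at least 10 CPM were past 2-fold between CNC_AngII and SHF_AngII, where 0.798% of 6764 genes were. In fibroblasts 0 of 6 were, where 0.61% of 7215 genes were. With 6 genes counted, a count of 0 cannot be told apart from these shares. Mmp3 passed 2-fold in smooth muscle under several of the alternatives listed at the end. Timp1 in smooth muscle stood at 257 CPM in CNC_AngII and 277 CPM in SHF_AngII, a log2 ratio of -0.11 (-0.14 to -0.08), and in fibroblasts at 2964 and 3267 CPM, a log2 ratio of -0.14. Timp2 ratios were 0.16 in smooth muscle and -0.09 in fibroblasts, and those of Mmp14 were 0.18 and 0.42.

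Mmp3 was the gene of the list closest to the threshold in smooth muscle, at 14.6 CPM in CNC_AngII and 30.1 CPM in SHF_AngII (log2 ratio -0.998, interval -1.14 to -0.95), and in fibroblasts it stood at 429 and 679.6 CPM (log2 ratio -0.66). Timp3 in fibroblasts was higher in CNC_AngII, at 2103 and 1282 CPM (log2 ratio 0.71, interval 0.69 to 0.73), while in smooth muscle it was 458 and 445 CPM. Timp4 in fibroblasts stood at 9.78 CPM (8.05 to 11.8) in CNC_AngII and 1.58 CPM (1.23 to 1.99) in SHF_AngII, a log2 ratio of 2.06 that was not counted because the mean was under 10 CPM, and that was 0.77 with 10 CPM added in place of 1. The 842 CNC_AngII fibroblasts were 8.26% of that library and the 2640 of SHF_AngII were 28.4%.

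Macrophages were compared in CNC_AngII alone, and Timp2 was the 1 gene of the list above 1000 CPM there. It stood at 1401 CPM (1385 to 1417) against 1088 CPM in fibroblasts of the same library (log2 ratio 0.36), and 96.4% of macrophages held a Timp2 UMI. The other 5 genes with at least 10 CPM were more than 2-fold lower than in fibroblasts, where 17.5% of all genes were. Timp3, Mmp2 and Mmp3 stood at 0.78%, 1.16% and 0.63% of the fibroblast level, and the fibroblast markers Dcn, Lum, Dpt and Clec3b stood at 0.86% to 1.23% there. Mmp2 thus lay within the range of these markers and Timp3 and Mmp3 below it, and the part of transcripts from other cells in these 3 values was not tested. With doublets kept, the log2 ratios of macrophages over fibroblasts were -4.97 in place of -6.05 for Timp1, -5.08 in place of -6.92 for Timp3, -4.89 in place of -6.01 for Mmp2 and -5.16 in place of -6.86 for Mmp3. Timp1 (43.8 CPM, 1.48%) and Mmp14 (4.43 CPM, 4.79%) lay above the markers. Timp1 was found in 21.4% of macrophages, and 1 cell held 140 of its 910 UMIs.

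Within the macrophages, Timp2 stood highest in other cells than Timp1 and Mmp14. The 1349 cells with a UMI of Lyve1, a hyaluronan receptor of resident vessel-associated macrophages, had 1618 CPM of Timp2, and the 415 cells without had 481 CPM (log2 ratio 1.75, interval 1.68 to 1.82). Timp1 stood at 29.6 CPM with Lyve1 and 104 CPM without (log2 ratio -1.78), and Mmp14 at 2.08 and 14.4 CPM (log2 ratio -2.32, interval -3.44 to -2.16). Timp3, which stood below the marker range, differed the same way as Timp1, at 12.6 CPM with Lyve1 and 32.3 CPM without (log2 ratio -1.30). The share of cells with a UMI was 18.2% and 31.8% for Timp1, 2.59% and 10.8% for Mmp14, and 11.9% and 10.1% for Timp3. Cells with Ccr2, the chemokine receptor of recruited monocytes, had the opposite order, with 694 CPM of Timp2 against 1624 CPM in cells without and 10.6 CPM of Mmp14 against 2.47 CPM. Timp1 stood at 66.0 against 36.8 CPM and Timp3 at 22.9 against 14.3 CPM in the same split. These are cells of 1 library, so they describe how the genes are spread and compare no conditions.

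In smooth muscle, cells with at least 5 UMIs of Spp1 (osteopontin, a secreted glycoprotein made by smooth muscle that leaves the contractile state) had more of Timp1, Mmp2 and Mmp3. Timp1 stood at 817 CPM in the 156 such cells of SHF_AngII and 226 CPM in the 4192 with no Spp1 UMI (log2 ratio 1.85), and at 603 and 181 CPM in CNC_AngII (log2 ratio 1.73). Mmp3 stood at 77.0 and 25.3 CPM in SHF_AngII and at 36.9 and 9.76 CPM in CNC_AngII. The share of cells with a Mmp3 UMI was 9.62% with Spp1 and 7.61% without in SHF_AngII, and 7.26% and 3.94% in CNC_AngII, so the Mmp3 levels rest on a small share of the cells. Timp3 did not follow, with log2 ratios of 0.01 and -0.17. The Spp1 cells were deeper, with medians of 23126 and 21274 UMIs against 12700.5 and 12492 UMIs in the cells without. Their Dcn level was 230.2 against 178 CPM in SHF_AngII and 33.7 against 17.3 CPM in CNC_AngII, and their Lum level was 78.0 against 77.0 CPM and 7.72 against 9.04 CPM.

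The level of Mmp3 also differed between smooth muscle cells with and without Tnnt2, a cardiac troponin gene, and in different directions by library. It stood at 10.3 CPM with Tnnt2 and 2.03 CPM without in SHF_Baseline, 37.2 and 20.8 CPM in SHF_AngII, and 6.97 and 16.8 CPM in CNC_AngII. The log2 ratios were 1.90, 0.81 and -1.16. The shares of cells with a Mmp3 UMI were closer, at 1.79% and 1.44% in SHF_Baseline, 8.92% and 6.79% in SHF_AngII, and 4.26% and 4.50% in CNC_AngII, so the levels turn on how many UMIs a few cells held.

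In fibroblasts, Timp1 and Mmp3 were spread differently. With Cthrc1, a secreted collagen-associated protein of activated fibroblasts, Timp1 stood at 3510 CPM against 2560 CPM without in SHF_AngII (log2 ratio 0.46) and at 3454 against 1942 CPM in CNC_AngII (log2 ratio 0.83). In SHF_Baseline the order was reversed, at 131 and 215 CPM. The Mmp3 level was lower in Cthrc1-positive cells in all 3 libraries, with log2 ratios of -0.89, -0.31 and -0.67. The share of cells with a Mmp3 UMI did not follow in SHF_AngII. It was 13.9% with Cthrc1 and 18.9% without in SHF_Baseline, 51.5% and 47.2% in SHF_AngII, and 37.9% and 40.9% in CNC_AngII. With Pi16, a marker of adventitial progenitor-like fibroblasts, the Mmp3 level was lower as well, with log2 ratios of -0.96, -0.48 and -0.60. Most fibroblasts had a Pi16 UMI: 3389 with and 550 without in SHF_Baseline, 2375 and 265 in SHF_AngII, and 715 and 127 in CNC_AngII. The share of cells with a Mmp3 UMI was 17.6% with Pi16 and 22.2% without in SHF_Baseline, 49.8% and 50.6% in SHF_AngII, and 40.3% and 33.1% in CNC_AngII. Timp1 was higher with Pi16 in both AngII libraries (0.75 and 0.80) but lower in SHF_Baseline, at 197 CPM with Pi16 and 239 CPM without (-0.28). Cells with a UMI of the proliferation genes Mki67 or Top2a had less Mmp2, at 148 against 255 CPM in SHF_AngII and 166 against 278 CPM in CNC_AngII. In both AngII libraries the cells with Cthrc1 were deeper than those without, with medians of 19231 against 10656.5 UMIs and 15157.5 against 8765.5 UMIs. Cells with Pi16 were deeper there as well, with medians of 15880 against 10981 UMIs and 12867 against 9722 UMIs. The part of depth in these splits was not tested.

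**Figure D5:**
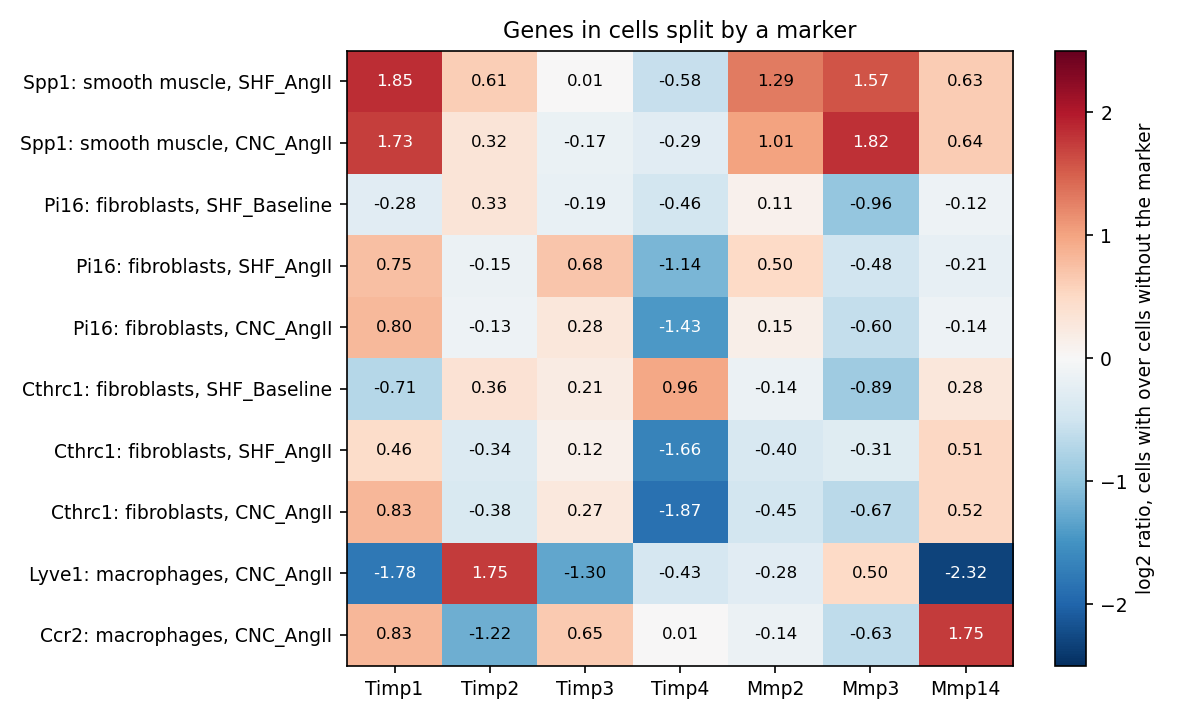
log2 ratio of each gene (columns) between cells with a marker and cells with 0 UMIs of it, within 1 class and library per row. Spp1 needs at least 5 UMIs and the other markers at least 1. Lyve1 and Ccr2 rows have opposite signs for Timp1, Timp2, Timp3 and Mmp14, and Mmp3 is negative in every Pi16 and Cthrc1 row.

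Mmp14, Timp2 and Mmp2, the partners of the activation complex, were found together in 25.5% (24.2 to 26.9) of SHF_Baseline fibroblasts, 45.2% (43.2 to 47.1) of SHF_AngII fibroblasts and 44.5% (41.1 to 48.0) of CNC_AngII fibroblasts. The median depth of these cells was 9534, 15485.5 and 12379.5 UMIs. After thinning to 5000 UMIs per cell, by a single random draw, the shares were 14.6%, 14.1% and 20.2%. The difference between the SHF libraries was thus not present at equal depth in that draw. In smooth muscle the thinned shares were 1.22%, 1.24% and 1.05%, and in CNC_AngII macrophages 6 of 1764 cells (0.34%) held all 3 without thinning.

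Of 20 other matrix metalloproteinases on a fixed list, 14 were among the common genes and few reached 10 CPM. Mmp23 stood at 155, 288 and 279.6 CPM in smooth muscle and 313, 512 and 445 CPM in fibroblasts of SHF_Baseline, SHF_AngII and CNC_AngII. Mmp17, a membrane-anchored enzyme, was at 27.4, 39.6 and 60.5 CPM in smooth muscle and at 1.58 CPM or less in fibroblasts, the reverse of Mmp3. Mmp12, the macrophage elastase, stood at 12.2 CPM and the gelatinase Mmp9 at 6.93 CPM in CNC_AngII macrophages. In each class 2 of these genes could be counted for SHF_AngII over SHF_Baseline and for CNC_AngII over SHF_AngII, and 0 passed 2-fold. For the first pair, 2.86% of all genes were higher and 3.53% lower in smooth muscle, and 4.64% and 10.7% in fibroblasts. For the second pair, 0.798% passed in smooth muscle and 0.61% in fibroblasts. With 2 genes counted, a count of 0 cannot be told apart from these shares.

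Of 13 activators, inhibitors and receptors of the system, 2 were past 2-fold higher and 2 lower among the 11 counted in fibroblasts of SHF_AngII against SHF_Baseline, where 4.64% of all genes were higher and 10.7% lower. Serpina3n, a secreted serine protease inhibitor, stood at 83.2 and 695 CPM (log2 ratio 3.05), and Pcsk6, a proprotein convertase that can cut metalloproteinase proforms, at 143 and 24.9 CPM (log2 ratio -2.48). In smooth muscle, where 2.86% of all genes were higher and 3.53% lower, 1 of 11 was higher and 0 lower, namely Serpina3n at 1.59 and 20.8 CPM, and it stood at 2.01 CPM in CNC_AngII. Its levels in smooth muscle of the SHF libraries were far below those in fibroblasts. The part of fibroblast transcripts in them was not tested. Against the same shares of all genes, of 8 ADAM sheddases 1 of the 7 counted in fibroblasts was higher, Adam12 (log2 ratio 4.26), and 1 lower, Adam33, at 16.2 and 5.48 CPM. Adam33 was also the 1 of 6 that was lower in smooth muscle, at 63.8 and 25.6 CPM. The median log2 ratio of the activators, inhibitors and receptors was 0.06 in smooth muscle and 0.28 in fibroblasts, and that of the sheddases was -0.45 and -0.05. Between macrophages and fibroblasts of CNC_AngII, 5 of the 8 sheddases were past 2-fold higher and 1 lower, where 18.2% of all genes were higher and 17.5% lower. Adam8, a protease of myeloid cells, stood at 44.9 CPM in macrophages and 1.05 CPM in fibroblasts, the latter from 12 UMIs.

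Over the 7 class and library sums, the genes whose log2 levels were most alike, among 4217 genes with at least 50 CPM in some sum, were Yif1b, Srm and Surf4 for Timp1 (Pearson r 0.994 to 0.999), Thbs1, Col12a1 and Podn for Mmp3 (0.991 to 0.994) and Lama2, Nid1 and Ece1 for Mmp2 (0.996 to 0.998). For Timp2 they were Fuca1, Pdcd6 and Vat1 (0.962 to 0.973), for Timp3 Thbs2, Itgav and 1500009L16Rik (0.990 to 0.992), for Mmp14 Yipf5, Ltbp2 and Dnajc25 (0.990 to 0.991) and for Timp4 Trim47, Bdnf and Lmcd1 (0.895 to 0.950). The 7 sums share libraries and classes, so these values describe likeness of pattern alone.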

How the data were processed

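The deposited files hold raw UMI counts per gene and cell barcode from the authors, made with a 10x Chromium Single Cell 3′ kit per the labels' protocols. The submitters' processing notes name fastp, STAR 2.5, HTSeq 0.6.1 and mm10; cell calling, the annotation release and the use of strand are not given in the sources used here. The baseline file lists 18760 genes and both AngII files 32285, so 18109 common genes (515 matched by synonym) were compared. Total counts per library were 92474476 (SHF_Baseline), 147854476 (SHF_AngII) and 150954701 (CNC_AngII).

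Barcodes needed 500 genes or more and a mitochondrial share of 10% or less, and Scrublet doublets (scanpy 1.11.5; 207, 192 and 279 cells) were left out. Levels have exact Poisson intervals, shares of cells Clopper-Pearson intervals, and ratios conditional exact binomial intervals. A gene was past 2-fold at a log2 ratio of at least 1 in size with a mean of at least 10 CPM. Thinned shares of single genes are the exact expectation at 5000 UMIs per cell, leaving out shallower cells. Thinned shares of cells with Mmp14, Timp2 and Mmp2 together are from a single random draw with a fixed seed in the same cells. TMM factors came from edgeR 4.0.16, and positions from GENCODE on GRCm38. The ratio code was tested on simulated data.

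The members and all lists were chosen with earlier results of these data known. The text names all 7 genes, at most 4 genes past 2-fold per comparison from the other lists, other metalloproteinases by level (chosen after their values were seen), and the 3 genes most alike per member. The motif search, the split of smooth muscle by Mmp3 and the gate on other fibroblast genes were added after the data were seen.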

Additional observations from a re-analysis of the deposited data

Results flagged for a closer look

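Timp2 had opposite signs in the classes for SHF_AngII over SHF_Baseline. Its log2 ratio was 0.81 in smooth muscle (0.35 under the stricter quality filter) and -0.76 in fibroblasts. Timp2 also had opposite signs for CNC_AngII over SHF_AngII, at 0.16 in smooth muscle and -0.086 in fibroblasts. Timp4 for CNC_AngII over SHF_AngII was at -0.22 in smooth muscle and 2.06 in fibroblasts, from 71 UMIs in SHF_AngII fibroblasts and 112 in CNC_AngII fibroblasts. Mmp2 for the same pair was at -0.43 in smooth muscle and 0.12 in fibroblasts. These differences between classes were not tested, since each group is 1 library.

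Cells outside the 3 classes, which enter none of the comparisons above, had 180.3 CPM of Timp1 in SHF_Baseline and 2351 CPM in SHF_AngII, a log2 ratio of 3.70 (interval 3.65 to 3.76).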

How the results depend on the processing

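Each log2 ratio of a gene was computed again under 11 alternatives, 2 of them chosen after seeing the data. Of 616 such values, 399 moved by less than their counting interval, 216 moved by more and 1 ratio past 2-fold reversed: Mmp3 in smooth muscle, SHF_AngII over SHF_Baseline, was at -1.41 under the stricter quality filter, which left 120 baseline cells. Part of the 616 values could not move. Without a minimum on CPM only the set of genes counted changes, not the ratios. Leaving out cells that pass both the fibroblast and macrophage gates, or gating fibroblasts on other genes, leaves smooth muscle across libraries unchanged. For the 25 ratios past 2-fold, 274 of 275 alternative values, such fixed ones among them, kept their direction. By size alone 272 were past 2-fold, and the reversed Mmp3 value is among them, past it in the other direction. The 3 within 2-fold were Mmp14, fibroblasts over smooth muscle in SHF_Baseline: 0.60 with the stricter quality filter, 0.96 with TMM scaling and 0.89 with 10 CPM added. In the same comparison Timp3 passed 2-fold, at 1.10, with fibroblasts gated on other genes. Mmp2 in smooth muscle, SHF_AngII over SHF_Baseline, passed it at -1.12 with the stricter quality filter, and Mmp14 in fibroblasts at 1.10 with TMM scaling. The count of genes past 2-fold in smooth muscle, CNC_AngII over SHF_AngII, was 1 (Mmp3) in place of 0 with no quality filter, with the stricter one, with doublets kept, with TMM scaling, with totals without mitochondrial and ribosomal protein genes and as a mean of per-cell shares. In fibroblasts it was 1 (Timp4) in place of 0 with no minimum on CPM. Ratios near 0 changed sign under single alternatives: Timp3 in fibroblasts for SHF_AngII over SHF_Baseline (0.18 with TMM scaling), Timp3 in smooth muscle for CNC_AngII over SHF_AngII (-0.017 under the stricter quality filter) and, in CNC_AngII, for fibroblasts over smooth muscle, Timp2 (-0.03 with TMM scaling) and Timp4 (-0.04 with the stricter class gate). The cause was not tested. Depth limits Timp4 in each class and all genes but Timp2 in macrophages.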
